A study of Mchenga conophoros with 13 samples.

Results

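The heat shock and DnaJ chaperone genes described here are the 45 genes whose names begin with an hsp stem or with dnaj and that had at least 10 unique molecular identifiers (UMIs, 1 count for each captured RNA molecule) over all 13 capture areas. They were taken by name alone, leaving out hspg2 and names that start with hspbap, from 22249 genes with a UMI and 32471 genes listed. A further 2 matching names were too rare to enter, dnajc22 with 9 UMIs and dnajc30 with 2. Genes listed only by a numeric ID could not match, and hspa8, hspa5, hsp90aa1 and hspe1 were not analysed here.

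Chaperones are proteins that help other proteins fold, keep them from clumping and pass damaged ones on for removal. HSP70 proteins grip and release unfolded stretches in a cycle driven by ATP, which DnaJ proteins start by bringing the client and which exchange factors reset. HSP90 proteins act on kinases and steroid receptors that are nearly folded, and small HSPs hold unfolded proteins without using ATP. Many of these genes are known for their induction by heat and other stress, while others have steady tasks in mitochondria, the endoplasmic reticulum (ER) or synaptic vesicles of neurons. The roles named for single genes are those known from mammals.

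Expression was measured in telencephalon sections of 4 adult Mchenga conophoros males, cichlids of Lake Malawi whose males build sand bowers. The 2 building males were sampled while castle-building, and the 2 control males, labelled as not building, were not. The study's methods describe pairs of a building and a control male of like size, and the labels do not say which males form a pair. No strain is given in the labels and neither group carried a transgene or received an agent that the sources name. Sections lay on Visium capture areas, fields of barcoded spots that each take up RNA from a small region which can hold several cells, and the deposited values were unnormalized UMI counts. The 6751 spots with a UMI held 51779064 UMIs, with 4634684 to 25126732 UMIs and a median of 2903 to 9138.5 UMIs per spot in a male. Building male 1 has 1 capture area and each other male has 4, so for it the male cannot be told apart from where the section was cut. The shallowest area, C of control male 1, had a median of 1225.5 UMIs per spot. Of 2714 barcodes, 1630 occurred in more than 1 area, because each Visium area carries the same set of spot barcodes. Markers of the telencephalon's main cells were present, with a UMI of the glutamatergic marker slc17a6 in 75.4% of spots, of the GABAergic marker gad2 in 76.6% and of the radial glia marker fabp7 in 64.7%.

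Together the 45 genes held 168499 UMIs, 0.325% of all UMIs. Levels are given as UMIs of the gene per 1000000 UMIs of the same spots (CPM), a scale that is not divided by gene length, so each gene is compared with itself. The summed level was 3283 and 3271 CPM in the building males, against 3315 and 3195 CPM in the control males. Leaving out hsp90ab1, which held 38.6% of these UMIs, it was 2032 and 2012 CPM in the building males, against 2031 and 1956 CPM in the control males. The males overlapped on both sums. For 19 of the 45 genes the highest male lay within 1.2 times the lowest, for 18 between 1.2 and 1.5 times, and for 8 above 1.5 times. The genes of the last group had at most 1287 UMIs each, and the median ratio over the 45 was 1.21.

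**Figure D1:**
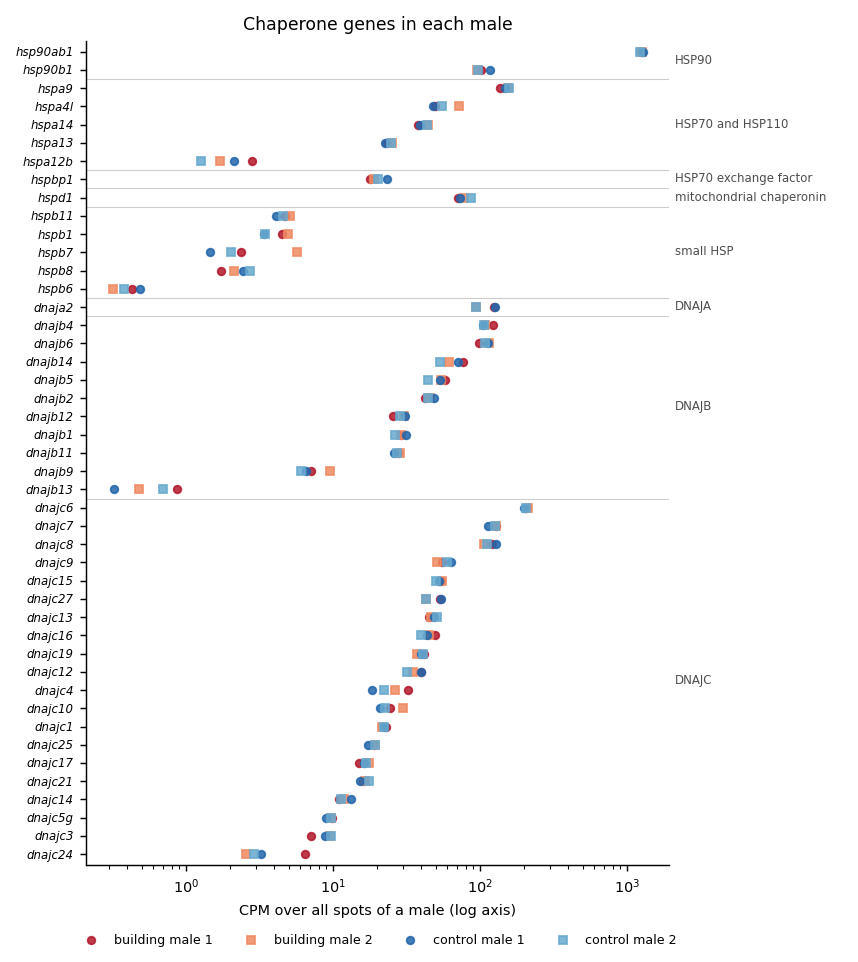
Level of each of the 45 genes in each male, in CPM over all spots of the male (log axis), with genes grouped by role and ordered by mean level. Points are the 2 building males (red, orange) and the 2 control males (dark and light blue). The 4 points of hsp90ab1 lie between 1239 and 1284 CPM, while those of the rare hspb7 lie between 1.47 and 5.73 CPM.

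Among the HSP90 genes, hsp90ab1, the constitutive cytosolic HSP90, had 1250.1 and 1259.5 CPM in the building males, against 1284 and 1239 CPM in the control males. It had the most UMIs of the 45 and a UMI in 94.5% of spots. The control males enclosed the building males, and the 4 values spanned a ratio of 1.04. Reads that fit several HSP90 copies could be left out by the counting, so its level is less certain than its UMIs alone would make it. The ER form hsp90b1 had 102 and 95.2 CPM in the building males, against 116 and 97.6 CPM in the control males. Control male 1 was highest and the other 3 males lay close together.

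Of the HSP70 and HSP110 genes, hspa9, the HSP70 of mitochondria, had 136 and 155 CPM in the building males, against 149 and 157 CPM in the control males. The mitochondrial chaperonin hspd1, which folds imported proteins in a closed chamber, had 71.4 and 77.96 CPM in the building males, against 73.7 and 86.6 CPM in the control males. Both groups of males overlapped for these 2 genes. The HSP110 gene hspa4l, which resets HSP70, had 49.8 and 71.6 CPM in the building males, against 47.9 and 55.1 CPM in the control males. Building male 2 stood above the other 3 males. The ribosome-bound hspa14 had 38.2 and 44.3 CPM in the building males, against 39.1 and 43.4 CPM in the control males, with the males of both groups interleaved. The other HSP70 genes were hspa13, a microsomal form with 22.6 to 25.4 CPM, and hspa12b, a distant relative known from blood vessel endothelium, with 89 UMIs in all.

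The 5 genes named as small HSPs were rare, with 803 UMIs in all. Their sum was 13.8 and 18.2 CPM in the building males, against 11.9 and 13.2 CPM in the control males. Building male 2 was highest, with 5.73 CPM from hspb7 alone on 144 UMIs. The groups did not overlap, but building male 1 lay close to control male 2. For hspb8 the order was reversed, with 1.73 and 2.11 CPM in the building males, against 2.44 and 2.71 CPM in the control males. Of the 5 genes, hspb11 is named for this family but is known as a part of the transport machinery of cilia. It had 4.75 and 5.09 CPM in the building males, against 4.07 and 4.60 CPM in the control males. The stress-induced hspb1 had 4.53 and 4.93 CPM in the building males, against 3.42 and 3.46 CPM in the control males. The rarest, hspb6, had 19 UMIs and could not be tested in any comparison, which was also the case for dnajb13 with 29 UMIs, a DnaJ known from sperm tails and cilia.

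Of the DnaJ genes, the DNAJA group was dnaja2 alone, a partner of cytosolic HSP70, with 125 and 93.7 CPM in the building males, against 127 and 94.6 CPM in the control males. The males numbered 1 in each group stood above the males numbered 2, and they also had the lower median UMIs per spot, 4714 in building male 1 and 2903 in control male 1, against 8355 in building male 2 and 9138.5 in control male 2. The part of depth in this difference was not tested, nor that of a shared pair. The 10 DNAJB genes summed to 491 and 484 CPM in the building males, against 485 and 445 CPM in the control males, and the 20 DNAJC genes to 961 and 926 CPM in the building males, against 933 and 917 CPM in the control males. The DNAJC gene with the most UMIs was dnajc6, auxilin, which strips the clathrin coat from synaptic vesicles, with 207 and 212 CPM in the building males, against 200.4 and 207 CPM in the control males. Its 4 values differed by a ratio of 1.06. Next came dnajc7, which links HSP70 and HSP90, and dnajc8, a protein of the splicing machinery, with a mean over the males of 125 and 117 CPM. In the DNAJB group, dnajb6, known for holding back aggregates of glutamine-rich proteins, had 99.3 and 116 CPM in the building males, against 113 and 108 CPM in the control males. For dnajb14, a DnaJ of the ER membrane, the values were 77.2 and 62.0 CPM in the building males, against 70.5 and 53.5 CPM in the control males, again with the males numbered 1 above those numbered 2. These 2 genes overlapped between building and control males.

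The remaining DnaJ genes were less abundant and are known for many places of work. In the ER and its membrane act dnajb9, dnajb11, dnajb12, dnajb14, dnajc1, dnajc3 and dnajc10, of which dnajb11 had 27.8 and 28.7 CPM in the building males, against 25.9 and 27.1 CPM in the control males while dnajc3 had 7.12 and 9.59 CPM in the building males, against 8.79 and 9.70 CPM in the control males. The building males lay just above the control males for dnajb11, and the groups overlapped for dnajc3. In mitochondria, dnajc19, which helps to pull proteins in, had 41.6 and 37.5 CPM in the building males, against 39.9 and 40.8 CPM in the control males, and dnajc15 had 54.6 and 54.8 CPM in the building males, against 52.7 and 49.95 CPM in the control males. The building males lay above the control males for dnajc15 by a narrow gap and overlapped them for dnajc19. The Rab-like dnajc27 had 53.7 and 43.3 CPM in the building males, against 54.7 and 43.1 CPM in the control males, another gene with both males numbered 1 above both males numbered 2. This order was also seen for hsp90b1, dnajc8 and dnajc12, among others. The reverse order, with both males numbered 2 above, was seen for hspa9, hspd1, hspa14 and hspa13, among others. The share of all genes with either order was not counted, so these orders are a description. The levels of dnajc12, a partner of the enzymes that make dopamine and serotonin, and of dnajb2, enriched in neurons, lay within 1.25 and 1.15 times between males. Others in nuclear or ribosomal tasks (dnajc17, dnajc21) and with a role less clear (dnajc5g, dnajc14, dnajc25) stayed within 1.21 times. The most uneven DnaJ gene with a test, dnajc24, which serves diphthamide synthesis, had 6.47 and 2.55 CPM in the building males, against 3.26 and 2.90 CPM in the control males, on 160 UMIs. Building male 1 stood above the other 3 males.

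Regions were compared within males. A spot was called pallial where its mean normalized score (Pearson residual) over 3 pallial markers, among them slc17a6, was above that over 7 subpallial markers, among them gad2, and subpallial otherwise. The pallium is the dorsal, mainly glutamatergic part of the telencephalon and the subpallium the ventral, mainly GABAergic part. By this rule 48.8% to 64.9% of a male's spots were pallial. A difference between spots can come from fewer cells of a type or from less RNA per cell, and these cannot be told apart. For scale, the log2 fold change of slc17a6 was 2.45 and that of gad2 was -1.75.

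Of 42 chaperone genes tested, 2 were higher in pallial spots, where 11.1% of the 13363 genes tested were higher, and 1 was lower, where 12.0% of all genes were lower. By edgeR's quasi-likelihood test with the male as a block, dnajb4 and dnajc13 rose and dnaja2 fell. The median log2 fold change of the 42 was -0.03 and its median size without sign was 0.0926, beside 0.174 over all genes tested. For 32 of the 42 the 95% interval of the difference lay within 1.5-fold in either direction, and for 41 within 2-fold. By role, 1 of 9 DNAJB genes and 1 of 20 DNAJC genes rose, the 1 DNAJA gene fell, and none of 2 HSP90, 4 HSP70 and HSP110, 4 small HSP genes, hspbp1 and hspd1 passed the threshold. Without adjustment, 7 of the 42 had p under 0.05, 2 of them higher and 5 lower, beside 4475 of the 13363 genes tested. DESeq2 called 2, dnajb4 and dnaja2, beside 1077 higher and 1143 lower over all genes. The counts of dnajb13, hspa12b and hspb6 were too low to test.

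The largest of the 3 called differences was that of dnajb4, a DnaJ partner of cytosolic HSP70. It had 138, 130.1, 119.8 and 116 CPM in pallial spots of building males 1 and 2 and control males 1 and 2, against 106, 77.7, 80.3 and 81.1 CPM in their subpallial spots. The pallial value was higher in every male and in 13 of 13 capture areas, and the pallial and subpallial values did not overlap across males. The means were 126 ± 9.64 CPM in pallial and 86.2 ± 13.1 CPM in subpallial spots (SD, n = 4 males). This gave a log2 fold change of 0.57 ± 0.07 (SE) with an adjusted p of 0.000349 (edgeR). It was past the threshold under each of 13 alternatives, with a range of 0.47 to 0.71. Without the spots rich in radial glia or oligodendrocyte markers it was 0.57, and the part of glia in this difference was not tested.

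The endosomal DnaJ dnajc13 had 52.5, 51.4, 50.9 and 53.9 CPM in pallial spots of building males 1 and 2 and control males 1 and 2, against 35.6, 40.6, 46.0 and 45.5 CPM in their subpallial spots. All 4 males and 10 of 13 capture areas had the higher value in pallial spots, and the groups of values did not overlap. Its log2 fold change was 0.31 ± 0.09 (SE) with an adjusted p of 0.0274 (edgeR). This call was lost without building male 1 (adjusted p = 0.0517), building male 2 (0.0984) or control male 2 (0.0954), by DESeq2 (0.113) and without the glia-rich spots (0.13), with the direction kept.

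In the other direction, dnaja2 had 110.3, 87.2, 120.1 and 88.0 CPM in pallial spots of building males 1 and 2 and control males 1 and 2, against 145, 103, 139 and 110.3 CPM in their subpallial spots. The subpallial value was higher in each male and in all 13 capture areas, although the values of different males overlapped. The log2 fold change was -0.28 ± 0.06 (SE) with an adjusted p of 0.00979 (edgeR), and 0.0707 without control male 2. Oligodendrocyte markers (mpz, olig1 and olig2, none at 0) summed to 93.3 to 130.1 CPM in pallial and 95.4 to 267 CPM in subpallial spots of a male, and 3 radial glia markers to 1035 to 1291 CPM and 1193 to 1276 CPM. Without the spots rich in either list the log2 fold change of dnaja2 was -0.30, still past the threshold. The spots left in can still hold these cells, and the part of glia in the level of dnaja2 was not tested.

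**Figure D2:**
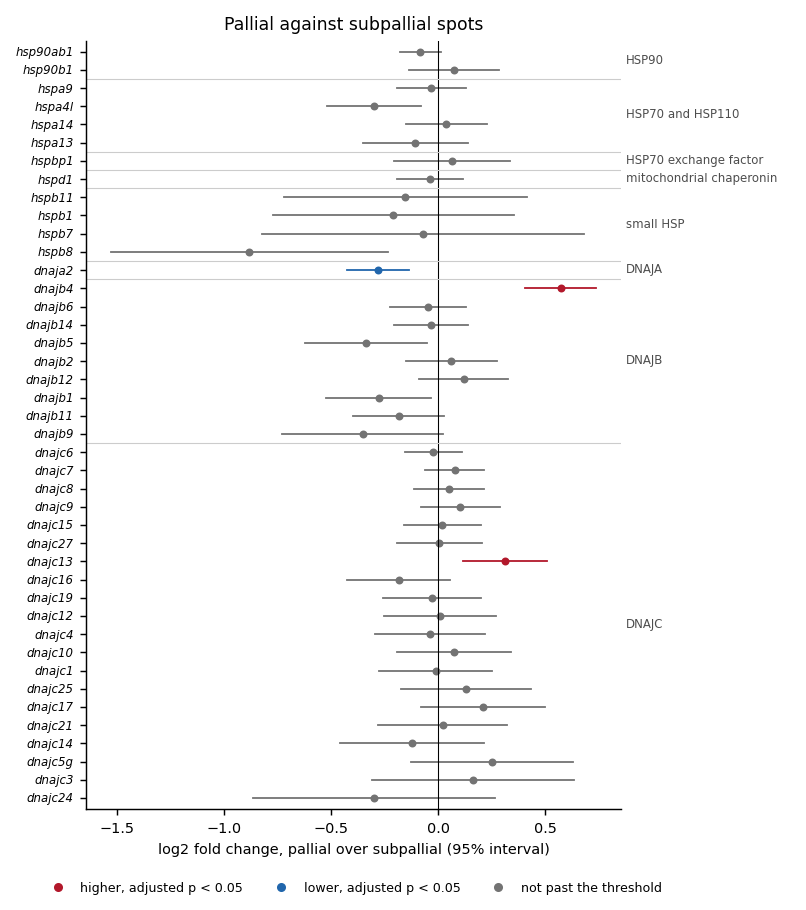
Log2 fold change of pallial over subpallial spots for the 42 genes tested, with 95% intervals from the edgeR fit over 4 males, grouped by role. Red marks the 2 genes past the threshold with higher values in pallial spots (dnajb4 at 0.57, dnajc13 at 0.31), blue the 1 with lower values (dnaja2 at -0.28) and gray the other 39, whose intervals widen among the rare small HSP genes.

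Other genes had lower values in pallial spots without passing the threshold. The small HSP hspb8, which works with bag3 in the removal of damaged proteins, had 1.15, 1.80, 1.31 and 2.14 CPM in pallial spots of building males 1 and 2 and control males 1 and 2, against 2.47, 2.53, 4.29 and 4.08 CPM in their subpallial spots. The pallial value was the lower one in every male, on 119 UMIs in all. Only its subpallial sums reached the low-count filter, 2.36 CPM here, so hspb8 could enter the test only as lower in pallial spots, and its adjusted p of 0.0534 (edgeR) is read as a description. For hspa4l the adjusted p was 0.0544 at a log2 fold change of -0.30 ± 0.10 (SE), and its pallial value was the lower one in all 4 males. The cytosolic DnaJ dnajb5 had 52.1, 42.5, 48.8 and 45.5 CPM in pallial spots of building males 1 and 2 and control males 1 and 2, against 66.2, 70.4, 60.6 and 41.8 CPM in their subpallial spots. It was lower in pallial spots of 3 males but not of control male 2. Its adjusted p was 0.0892 (edgeR). The heat-inducible dnajb1, the DnaJ best known from the stress response, had a log2 fold change of -0.28 ± 0.11 (SE) with an adjusted p of 0.102. For hsp90ab1 the log2 fold change was -0.08 ± 0.04 (SE), with a 95% interval of -0.18 to 0.01, and pallial spots were lower in 12 of 13 areas.

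The region scores also allowed a finer look, with the spots of each capture area split into 5 equal parts from most subpallial (1) to most pallial (5). These are the spots of the comparison above, so the values are a description. The mean of dnajb4 over the 4 males was 78.4 ± 13.2, 105 ± 18.3, 119 ± 8.44, 123 ± 23.7 and 131 ± 8.58 CPM (SD, n = 4 males) along the parts. The mean climbed from part to part, although a single part broke the order in each of 3 males. For dnaja2 the means were 135 ± 27.7, 101 ± 15.6, 97.9 ± 16.9, 104 ± 21.2 and 101 ± 14.8 CPM. The mean was highest in the most subpallial part, and the other 4 parts were alike within the spread between males, but in building male 2 parts 1 and 2 were alike. The same shape was seen for dnajb5, with 68.2 ± 16.8 CPM in part 1 and means of 43.5 to 49.4 CPM in the others, but not in control male 2. Control male 2 had 44.7 CPM in part 1. The mean of hspa9 stayed between 145 and 154 CPM.

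**Figure D3:**
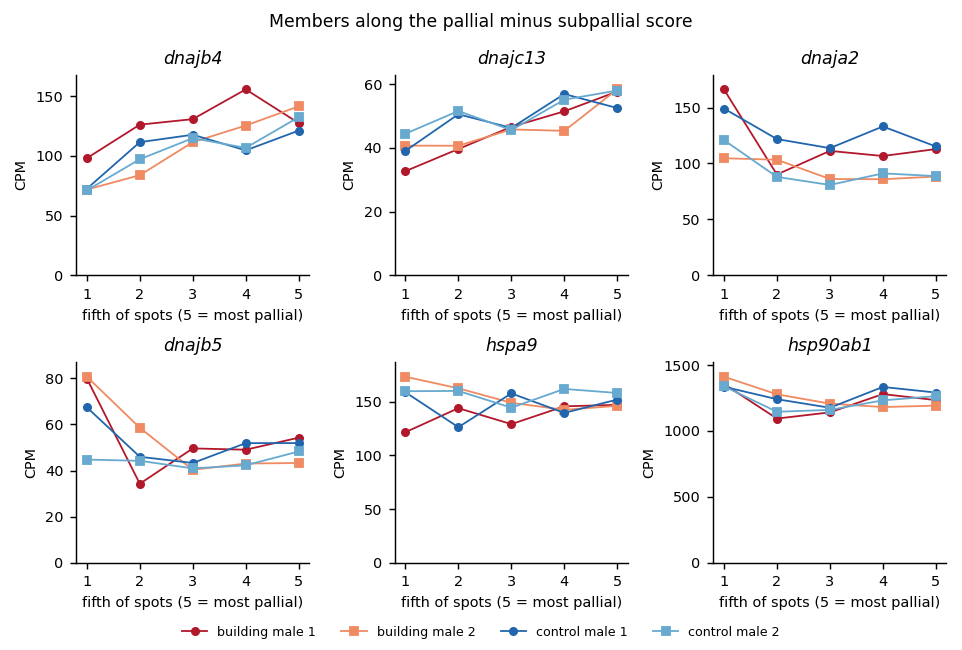
Level in CPM of 6 genes in 5 equal parts of the spots of each capture area, ordered by the pallial minus subpallial score (1 most subpallial, 5 most pallial), 1 line per male. The mean of dnajb4 is 78.4 CPM in part 1 and 131 CPM in part 5, dnaja2 is highest in part 1 in all 4 males, and hspa9 shows no common slope.

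Of the genes that work with these chaperones, 2 HSP90 partners passed the threshold between regions, out of 17 cochaperone genes tested. Beside this and the other counts of this paragraph, 11.1% of the 13363 genes tested were higher in pallial spots and 12.0% were lower. The cyclophilin ppid had 52.9, 59.7, 50.6 and 57.2 CPM in pallial spots of building males 1 and 2 and control males 1 and 2, against 36.6, 47.6, 36.9 and 44.0 CPM in their subpallial spots. It was higher in pallial spots of every male, with a log2 fold change of 0.40 ± 0.08 (SE) and an adjusted p of 0.00431 (edgeR). The immunophilin fkbp4, known for its work on steroid receptors, had 76.99, 94.2, 96.0 and 93.1 CPM in pallial spots of building males 1 and 2 and control males 1 and 2, against 99.3, 123, 98.8 and 128 CPM in their subpallial spots. It was lower in pallial spots of every male, with a log2 fold change of -0.32 ± 0.08 (SE) and an adjusted p of 0.0148. That call was lost without building male 2 (adjusted p = 0.0647) and without control male 2 (0.119). Neither of the heat shock factors hsf1 and hsf2, which switch on heat shock genes, was called, nor were any of 8 subunits of the cytosolic chaperonin. None of 14 ER chaperone and ER stress genes was called either. This list also holds the transcription factors xbp1, atf4, atf6, atf6b and ddit3. Among 9 immediate early genes, which neurons switch on when active, egr3 and fosl2 were higher, with log2 fold changes of 0.96 ± 0.14 (SE) and 0.58 ± 0.12 (SE), and jund and egr2 were lower, with -0.58 ± 0.10 (SE) and -3.62 ± 0.42 (SE). The value of egr2 rests on 15 UMIs in pallial and 113 UMIs in subpallial spots. With so few pallial UMIs, the low-count filter of 2.36 CPM was met mainly through its subpallial sums. A call of egr2 in the other direction was therefore hardly possible, and its value is read as a description. Of 13 alternatives, 11 tested egr2.

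Radial glia, the stem-like glia that line the ventricles of the fish telencephalon, were followed through the 10% of spots of each area with the highest score over fabp7, s100b and id1. The log2 fold change of fabp7 between these and the other spots was 2.65. Of 40 chaperone genes tested, 1 was higher in the radial glia-rich spots, beside 10.8% of the 12927 genes tested, and 1 was lower, beside 5.39%. Scaling by library size alone in place of TMM factors turned the split of all genes called from 1400 higher and 697 lower into 1314 higher and 1008 lower. In 25 of the 40 genes the 95% interval lay within 1.5-fold, and in 38 within 2-fold. The 1 higher gene, hspb8, entered the test only through the radial glia-rich sums and is given as a description. Too low to test were dnajb13, dnajc24, hspa12b, hspb6 and hspb7. DESeq2 called none of the 40, beside 1139 higher and 435 lower over all genes. Without adjustment 2 of the 40 were higher and 3 lower at p under 0.05 by edgeR, beside 3432 of the 12927 genes tested.

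The gene called higher was the small HSP hspb8, with 4.22, 4.36, 3.55 and 6.53 CPM in radial glia-rich spots of building males 1 and 2 and control males 1 and 2, against 1.44, 1.88, 2.33 and 2.35 CPM in their other spots. It was higher in the radial glia-rich spots of every male, without overlap across males. The values rest on 23 UMIs in the radial glia-rich and 96 in the other spots, with 2, 10, 2 and 9 UMIs in the radial glia-rich spots of building males 1 and 2 and control males 1 and 2. All 4 radial glia-rich sums but none of the 4 others reached the filter of 3.10 CPM, so hspb8 could be tested only with this direction, and with no low-count filter its adjusted p was 0.0729. With the filter the log2 fold change was 1.31 ± 0.40 (SE) with an adjusted p of 0.0304 (edgeR). Of 13 alternatives, 5 kept the call, 4 lost it and 4 left hspb8 untested. It was lost without building male 1 (adjusted p = 0.0706) or control male 2 (0.172), by DESeq2 (0.137) and with no filter, and untested without building male 2, with the top 5% or top 20% of spots and within pallial spots alone. Over all males hspb8 had 5.34 CPM in radial glia-rich and 1.47 CPM in other pallial spots, and 4.21 and 2.98 CPM in subpallial spots. Markers of other cells moved with this class too. Microglia markers (the 2 of 4 listed genes matched by name, none at 0) summed to 16.0 to 44.3 CPM in radial glia-rich and 10.1 to 12.5 CPM in other spots of a male. Pericyte and endothelium markers (3 genes) had 96.0 to 150.4 CPM and 63.6 to 85.3 CPM, and ciliated ependyma markers (4 genes) 6.33 to 14.2 CPM and 3.05 to 6.07 CPM. All 4 microglia markers, found by name or gene ID, summed to 643 to 707 CPM over all spots of a male and were not split by class. The part of microglia, pericytes, endothelium and ependyma in the level of hspb8 was not tested.

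The gene that fell was dnajc7, with 99.2, 109, 90.6 and 93.7 CPM in radial glia-rich spots of building males 1 and 2 and control males 1 and 2, against 132, 130.1, 117 and 131 CPM in their other spots. The lower value lay in the radial glia-rich spots of every male, and the 2 classes did not overlap. The means were 98.1 ± 8.06 CPM in radial glia-rich and 127 ± 7.16 CPM in other spots (SD, n = 4 males). The log2 fold change was -0.32 ± 0.10 (SE) with an adjusted p of 0.0359 (edgeR). It was lost without building male 1 (adjusted p = 0.0944), control male 1 (0.082) or control male 2 (0.122), by DESeq2 (0.0986), with the top 5% of spots (0.242) and within pallial spots alone (0.0977), each time with the direction kept. The neuronal region markers were also lower in the radial glia-rich spots of every male. The 3 pallial markers summed to 544 to 744 CPM in radial glia-rich and 723 to 833 CPM in other spots of a male. The 7 subpallial markers summed to 417 to 1134 CPM and 908 to 1536 CPM. The part of neuron content in the level of dnajc7 was not tested. Counts of dnajc7 could include reads of nkiras2, which overlaps it in the annotation. The adjusted p was 0.0916 for hspa14, at a log2 fold change of -0.39 ± 0.15 (SE), and 0.0958 for dnajb5, at -0.36 ± 0.14 (SE). For dnajb1 the radial glia-rich value was the higher one in all 4 males, with a log2 fold change of 0.32 ± 0.15 (SE) and an adjusted p of 0.182. None of 17 cochaperone genes, 13 ER chaperone and ER stress genes, 8 chaperonin subunits and 2 heat shock factors passed. Of 8 immediate early genes, jun was higher (0.63 ± 0.21 (SE)) and fosl2 (-0.36 ± 0.10 (SE)) and jund (-0.40 ± 0.10 (SE)) were lower on the log2 scale. The call of jun was lost in 8 of 13 alternatives (adjusted p up to 0.325), among them without building male 1, control male 1 or control male 2. Its log2 fold change was 0.96 without building male 2, 0.41 without control male 2 and 0.31 with the top 20% of spots. The calls of fosl2 and jund were each lost in 4 of 13, among them without building male 2, without control male 2 and within pallial spots alone, where their log2 fold changes were -0.21 and -0.25.

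Oligodendrocytes, the myelin-forming cells, were followed in the same way through mpz, olig1 and olig2, whose log2 fold changes were 3.46, 2.95 and 3.15. Of 40 chaperone genes tested, 1 was higher in the oligodendrocyte-rich spots, beside 3.47% of the 12826 genes tested, and none was lower, beside 1.33%. With scaling by library size alone, the 445 higher and 171 lower calls over all genes became 370 and 277. Without adjustment 3 of the 40 were higher and 1 lower at p under 0.05 by edgeR, beside 2087 of the 12826 genes tested. DESeq2 called none of the 40, beside 220 higher and 53 lower over all genes. The counts of dnajb13, hspa12b, hspb6, hspb7 and hspb8 did not pass the filter. The 95% interval lay within 1.5-fold for 27 of the 40 and within 2-fold for 36.

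The gene that rose was dnajc15, a DnaJ of the inner mitochondrial membrane, with 88.8, 68.1, 67.3 and 64.5 CPM in oligodendrocyte-rich spots of building males 1 and 2 and control males 1 and 2, against 52.3, 53.7, 51.4 and 48.6 CPM in their other spots. Every male was higher in its oligodendrocyte-rich spots, with no overlap across males, and building male 1 stood above the other 3 there. The means were 72.2 ± 11.2 CPM in oligodendrocyte-rich and 51.5 ± 2.16 CPM in other spots (SD, n = 4 males). The log2 fold change was 0.48 ± 0.12 (SE) with an adjusted p of 0.0193 (edgeR). It was lost without building male 1 (adjusted p = 0.0552), building male 2 (0.094) or control male 2 (0.115), by DESeq2 (0.0603), with markers found by gene ID added (0.183) and with the top 5% of spots (0.209), while the direction was kept. Other cells' markers were also higher in every male. The same 2 microglia markers had 13.2 to 24.6 CPM in oligodendrocyte-rich and 10.4 to 13.1 CPM in other spots. Pericyte and endothelium markers had 83.1 to 129.8 CPM and 65.1 to 86.8 CPM. The part of these cells in the level of dnajc15 was not tested. For the ER form hsp90b1 the oligodendrocyte-rich value was the higher one in all 4 males, at a log2 fold change of 0.24 ± 0.10 (SE), but its adjusted p was 0.188. For dnajb6 it was the lower one in all 4 males, at -0.25 ± 0.11 (SE) with an adjusted p of 0.243. The immediate early gene ier2 was higher, at 0.50 ± 0.13 (SE) with an adjusted p of 0.0222, a call lost in 4 of 13 alternatives. These were without control male 1 (adjusted p = 0.0778) or control male 2 (0.231), by DESeq2 (0.0769) and with the top 5% of spots (0.652), where the log2 fold change was 0.25. This gene was the only call among 8 immediate early, 17 cochaperone, 13 ER chaperone and ER stress, and 8 chaperonin genes and 2 heat shock factors in this comparison.

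**Figure D4:**
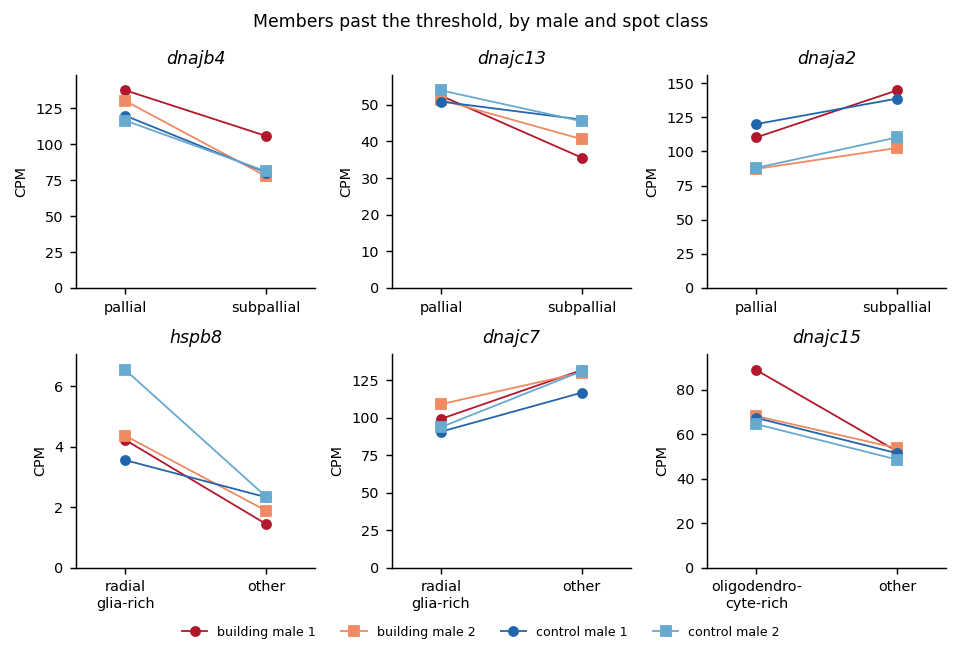
Level in CPM of the 6 genes past the threshold in a comparison of spot classes, 1 line per male, with axes from 0. Pallial, radial glia-rich or oligodendrocyte-rich spots are on the left of each panel and subpallial or other spots on the right, and all 4 lines of a panel slope the same way. The highest level of hspb8 is 6.53 CPM. This gene entered its test only through the radial glia-rich sums, so its panel is a description.

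Building and control males were compared on counts summed per male. None of the 43 chaperone genes tested was called over all spots by edgeR's quasi-likelihood test, and 0.0% of the 15532 genes tested were. The smallest adjusted p of the 43 was 1.00, and their median log2 fold change was 0.00, as was that of all genes. Without adjustment 1 of them, dnajc4, had p under 0.05, as had 306 of all genes, and DESeq2 and the limma fit over capture areas called none of the 43. In pallial spots none of 43 was called, beside 0.0% of all genes. Unadjusted, 1 gene, hspb7, was under 0.05 (log2 fold change 1.71), as were 290 of the 14591 genes tested. In subpallial spots none of 42 was called, beside 0.00754% of all genes. Unadjusted, 0 were under 0.05, beside 206 of the 13271 genes tested. Of these 42, hspb8 reached the low-count filter of 2.86 CPM only in the 2 control males. It could therefore enter this test only as lower in building males. DESeq2 called none in either region. The 95% interval of the difference over all spots lay within 1.5-fold for 28 of the 43 and within 2-fold for 37, and the other 6 intervals reached further.

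By the ranges of the males, 14 of the 43 genes had both building males above both control males. Of the 15532 genes tested, 2192 (14.1%) did. Both building males were below for 4 of the 43, and for 1794 (11.6%) of all genes. The remaining 25 overlapped. The share above was larger than over all genes, and the share below was near that over all genes. These counts come from the same 4 males and are a description. The 14 were dnajb4, dnajb5, dnajb9, dnajb11, dnajc4, dnajc5g, dnajc6, dnajc7, dnajc10, dnajc15, dnajc16, hspb1, hspb7 and hspb11, and some of the gaps were small. For dnajc7 the 2 building males had 128.4 and 128.2 CPM and the 2 control males 114.3 and 127.7 CPM. The 4 below were dnajc9, dnajc13, hspbp1 and hspb8. Markers of the regions separated the males over all spots too. The 9 subpallial markers found by name or gene ID summed to 1512 and 1195 CPM in the building males, against 1029 and 876 CPM in the control males, and the 7 pallial markers to 1169 and 1078 CPM in the building males, against 1234 and 1294 CPM in the control males. The part of region content in the values over all spots was not tested.

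The smallest p belonged to dnajc4, a little-studied DnaJ, with 32.6 and 26.6 CPM in the building males, against 18.6 and 22.3 CPM in the control males. Both building males were above both control males, and over capture areas the building values were 24.7 to 32.6 CPM and the control values 11.9 to 24.7 CPM, with areas of the same male not independent. By edgeR's quasi-likelihood test, fitted across all genes, the log2 fold change was 0.50 ± 0.19 (SE) with an adjusted p of 1.00. The small HSP hspb7, known from heart muscle, had 2.37 and 5.73 CPM in the building males, against 1.47 and 2.02 CPM in the control males. It rests on 11 and 144 UMIs in the building males, against 9 and 32 UMIs in the control males, and building male 2 alone stood apart. This male also had the highest sum of 6 oligodendrocyte markers, with 316 and 709 CPM in the building males, against 375 and 444 CPM in the control males, and the lowest share of UMIs from the mitochondrial genome, 1.14% against 1.69% to 2.37% in the others. In all 4 males hspb7 was higher in oligodendrocyte-rich than in other spots, on 28 UMIs in the oligodendrocyte-rich spots. Of these UMIs, 2 and 22 were in building males 1 and 2, and 1 and 3 in control males 1 and 2. The part of oligodendrocyte content or of the mitochondrial share in the level of hspb7 was not tested. In the 4 areas of building male 2 hspb7 had 4.09 to 6.99 CPM, while the highest control area, C of control male 1, had 7.43 CPM on 5 UMIs. Its log2 fold change was 1.24 ± 0.54 (SE) with an adjusted p of 1.00, and 0.39 without building male 2.

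Next were dnajc10, an ER reductase of the DnaJ family, and dnajb9, an ER DnaJ induced when unfolded proteins build up there. The values of dnajc10 were 24.4 and 30.0 CPM in the building males, against 21.0 and 22.6 CPM in the control males, and those of dnajb9 were 7.12 and 9.55 CPM in the building males, against 6.51 and 6.05 CPM in the control males. For both, building male 2 was the highest of the 4, and the building males lay above the controls. Their log2 fold changes were 0.31 ± 0.17 (SE) and 0.42 ± 0.28 (SE), with an adjusted p of 1.00 for each (edgeR). Without building male 2 they were 0.14 and 0.17. In the other direction, dnajc9, a histone chaperone partner, had 55.5 and 51.3 CPM in the building males, against 64.0 and 59.6 CPM in the control males, and the exchange factor hspbp1 had 17.9 and 19.0 CPM in the building males, against 23.4 and 20.2 CPM in the control males. Their log2 fold changes were -0.23 ± 0.13 (SE) and -0.25 ± 0.17 (SE), neither past the threshold, and that of hspbp1 was -0.15 without control male 1. Counts of dnajc9 could include reads of fam149b1, which overlaps it. The other genes among the 10 with the smallest p were hspb1, dnajb5, dnajc16 and hspa4l, with log2 fold changes of 0.45, 0.19, 0.17 and 0.23. For hspa4l the sign turned without building male 2, to -0.073. Without control male 2 the value of dnajb5 was 0.074 and that of dnajc16 was 0.10, and without control male 1 that of dnajb5 was 0.32. The 95% interval of hsp90ab1 was -0.31 to 0.27 on the log2 scale, of hspd1 -0.47 to 0.24 and of hspa9 -0.41 to 0.25. None of 9 immediate early genes, 19 cochaperone genes, 14 ER chaperone and ER stress genes, 8 chaperonin subunits and 2 heat shock factors was called.

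**Figure D5:**
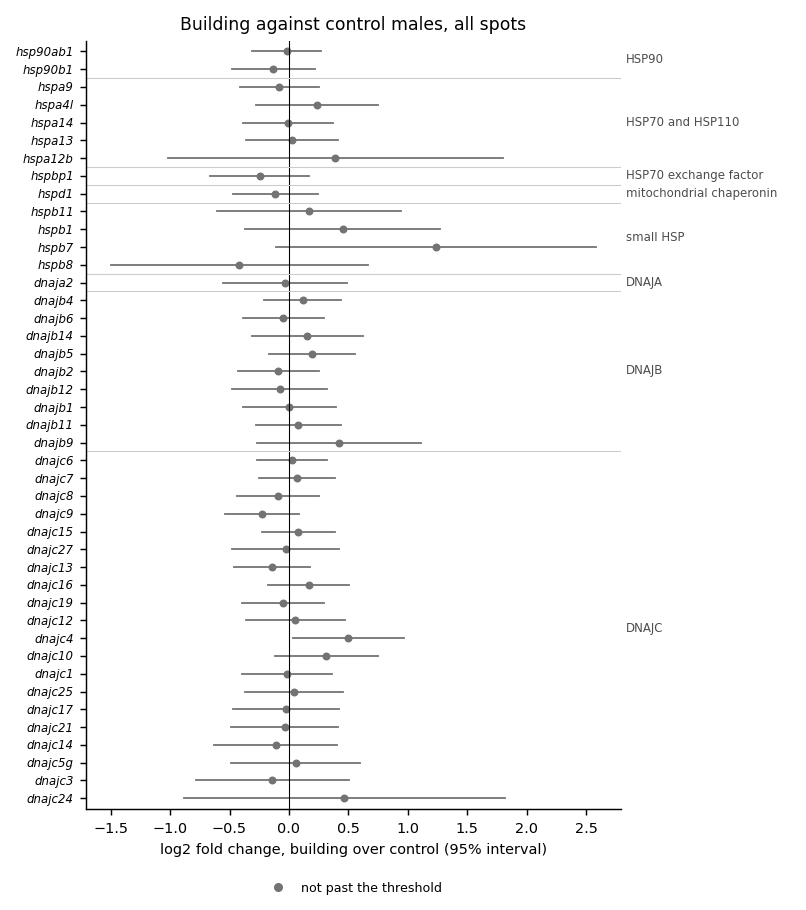
Log2 fold change of building over control males, all spots, for the 43 genes tested, with 95% intervals from the edgeR fit over 2 building and 2 control males, grouped by role. No gene passed the threshold. The interval of dnajc4 leaves out 0 before adjustment, and those of hspb7, hspb8, hspa12b and dnajc24 are the widest.

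Whether the building difference itself changed between regions was tested as an interaction over males and regions. None of 43 chaperone genes was called, beside 0.00701% of the 14270 genes tested, and DESeq2 called none. Without adjustment 1, dnajb5, had p under 0.05, beside 512 of all genes tested. For dnajb5 the log2 difference of the building effect in pallial over subpallial spots was -0.52 ± 0.21 (SE) with an adjusted p of 1.00 (edgeR). In subpallial spots dnajb5 had 66.2 and 70.4 CPM in the building males, against 60.6 and 41.8 CPM in the control males, and in pallial spots 52.1 and 42.5 CPM, against 48.8 and 45.5 CPM. The groups of males did not overlap in the subpallium and overlapped in the pallium. Without building male 1, which has 1 capture area, the adjusted p was 0.0301 at a log2 difference of -0.68, with building male 2 as the only building male, assumed to vary like the others. In that fit 250 of the 15895 genes tested were called, against 1 of 14270 with all males.

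By the RefSeq annotation of the M_conophoros_male_GT1.1 assembly, which is not the M. zebra build of the files, 8 of the 36 genes matched there overlapped another gene, dnajb11 with tbccd1, dnajc7 with nkiras2, dnajc9 with fam149b1, dnajc14 with nab2, hspb11 with lzts1, hspa9 with a small nucleolar RNA, and dnajb13 and dnajc17 with unnamed genes. Reads of these neighbors could enter their counts, and whether the counting used strand is not given in the sources used here.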

How the data were processed

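Visium libraries of telencephalon sections from 2 building and 2 control males (13 capture areas) were analysed. The deposited values were raw counts of UMIs, obtained by the authors with Space Ranger 1.3.1 (submitters' processing notes) on the M. zebra UMD2a build and not normalized. Spots without a UMI (4 of 6755) were left out. Pearson residuals over all spots (sctransform 0.4.2) gave the class scores, from markers matched by name. Counts were summed per male, or per male and spot class, and tested with edgeR 4.0.16 (TMM, filterByExpr with a minimum count of 10, quasi-likelihood test, R 4.3.3), with the male as block between classes. P-values were adjusted over all genes tested by Benjamini-Hochberg, with a threshold of 0.05. DESeq2 1.42.0 and limma 3.58.1 (voom, capture areas as samples, male as random block) were alternatives, beside other scalings, filters, class rules and each male left out. An exact permutation of 2 against 2 males cannot give p below 0.333. The males are separate animals, and capture areas of a male are not independent. The tests were checked on simulated data, with changes larger than those seen for the chaperone genes and the same spread for all genes. That check does not show how small a difference the tests could find. Counts have counting error of their own, and depth per male was 4634684 to 25126732 UMIs.

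Named genes were the members past the threshold, the 3 with the most UMIs in each role group, the 10 with the smallest p between building and control males, the 5 with the largest SD over males among those with at least 200 UMIs, and pathway genes past the threshold. Other genes were named after their values were seen. The members and the lists were chosen with earlier results of these data known.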

Additional observations from a re-analysis of the deposited data

Results flagged for a closer look

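The mitochondrial DnaJ gene dnajc15 had 88.8 CPM in the oligodendrocyte-rich and 52.3 CPM in the other spots of building male 1, the highest such ratio of the 4 males. Its gap to the next male on the log2 scale was 0.845 of the whole range over the 4 males, above Dixon's critical value for 4 samples. It was 1 of 16 such ratios looked at, and chance flags about 1 in 20 groups. Building male 1 has 1 capture area and the fewest UMIs, and the part of either in this ratio was not tested.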

How the results depend on the processing

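Of 194 values for 16 single chaperone gene results under the alternatives, 171 kept direction and side of the threshold, 22 kept the direction but were no longer past the threshold, and 1 turned. Most of the 171 belong to genes compared between building and control males, which were not called with all males. Such a gene counted as kept while it stayed uncalled with the same sign. All 22 lost calls were among the genes called between spot classes. Settings that left hspb8 untested are not among the 194. The one that turned was hspa4l between building and control males, with log2 fold changes of -0.073 to 0.46 when a male was left out (-0.073 without building male 2), against 0.23 with all males. Between pallial and subpallial spots the count of genes called was 5 with no low-count filter, against 3, and 2 to 4 with a male left out. For radial glia-rich spots it was 4 with markers found by gene ID added, 0 by DESeq2, 0 with the top 5% of spots and 0 in pallial spots alone, against 2, and 0 to 1 with a male left out. For oligodendrocyte-rich spots it was 2 with the top 20% of spots and 0 by DESeq2, with the top 5% of spots and with gene IDs added, against 1, and 0 to 1 with a male left out. For the difference of the building effect between regions it was 0, and 0 to 1 with a male left out. The cause of these changes was not tested. Markers by gene ID, leaving out glia-rich spots and leaving out each male in the test of the building effect between regions were chosen after seeing the data.

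The study's methods describe building and control males as size-matched pairs, but by the labels same-numbered males share only a number. Over genes, the deviations of building male 1 and control male 1 from their group means had a correlation of 0.23. With 2 males a group, the males numbered 2 must give the same value. This single value does not show which males form a pair. With the replicate block, 0 chaperone genes were called between building and control males in all spots, in pallial spots and in subpallial spots. With 2 males a group, and 1 where a male was left out, the building comparisons rest on a spread pooled across genes and groups. Over all genes, the 0 calls between building and control males became 18 by DESeq2, 21 with capture areas as samples, 62 with no filter, 74 without building male 1 and 173 without building male 2.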
